A study of Homo sapiens with 16 samples.

Results

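In SW480 colon cancer cells, 308 stretches of chromatin were bound by the NFκB subunit p65 both in mock cells and in cells expressing estrogen receptor β (ERβ), and in neither condition of HT29 cells. They were chosen by the signal itself, from 6420 regions bound in at least 1 of the 4 groups. The genome was cut into bins of 200 bp over chromosomes 1 to 22 and X. A bin counted as bound in a group when, in at least 2 of its 3 libraries, its mean signal was 2 or more, at least 4 times the group's input (taken as no less than 0.35) and at least 4 times that of the 10 kb around it. Bound bins within 200 bp of each other were joined. The difference between the cell lines is therefore what selected these regions, and it is given here as a description with no test.

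p65, encoded by RELA, waits in the cytoplasm in a complex with IκB proteins. TNFα leads to the destruction of IκB, and p65 then enters the nucleus and binds κB sites, usually as a dimer with p50. Where it binds in a given cell type depends in part on chromatin opened by other factors, among them the FOS and JUN proteins of AP-1 and the RUNX family, and a core of NFκB feedback genes is bound in most cells that respond to TNFα.

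HT29 and SW480 are established colorectal adenocarcinoma lines. Each was stably transfected with an empty vector (mock) or with ERβ, and all cells, controls included, are labelled as given TNFα at 30 ng/ml for 30 min before crosslinking with DSG and formaldehyde. Each of the 4 groups has 3 p65 ChIP libraries and 1 input, and both inputs of ERβ cells were taken from another deposited series of the authors, so that the labels alone give their treatment. A difference between ERβ and mock cells cannot be told apart from other differences between the transfected populations. The label was checked at ESR2, the gene of ERβ, by the signal of its coding exons over that of its introns. This was 2.38 to 7.13 times in ERβ ChIP libraries and 1.08 to 1.58 times in mock ChIP libraries. The HT29 inputs had 2.12 times in ERβ and 1.17 times in mock cells. The SW480 inputs were closer together, at 1.76 and 1.535 times.

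The sequences below are the strongest 200-bp bin of regions that carry the motifs described further on, read from GRCh38 on the plus strand with matches in capitals. In the first set a κB match and at least 1 RUNX match (TGTGGTC or TGTGGTT, either strand) stand in the same bin: NCEH1 at chr3:172592201-172592400, DNMT3B at chr20:32792401-32792600, IL23A at chr12:56338601-56338800 and CDX2 at chr13:27966001-27966200. Each region is called by a protein-coding gene near it, which need not be the gene it acts on.
NCEH1: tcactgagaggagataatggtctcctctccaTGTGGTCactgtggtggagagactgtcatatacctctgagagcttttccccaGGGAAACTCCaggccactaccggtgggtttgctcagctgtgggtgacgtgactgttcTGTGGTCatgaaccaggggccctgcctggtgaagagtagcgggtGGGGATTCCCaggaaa
DNMT3B: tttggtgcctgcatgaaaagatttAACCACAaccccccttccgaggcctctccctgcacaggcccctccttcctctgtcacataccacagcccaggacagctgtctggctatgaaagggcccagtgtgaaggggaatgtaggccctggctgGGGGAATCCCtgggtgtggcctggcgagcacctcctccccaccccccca
IL23A: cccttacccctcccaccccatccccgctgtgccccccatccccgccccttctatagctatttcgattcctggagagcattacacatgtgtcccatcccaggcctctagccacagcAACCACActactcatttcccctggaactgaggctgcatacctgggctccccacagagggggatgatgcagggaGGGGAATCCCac
CDX2: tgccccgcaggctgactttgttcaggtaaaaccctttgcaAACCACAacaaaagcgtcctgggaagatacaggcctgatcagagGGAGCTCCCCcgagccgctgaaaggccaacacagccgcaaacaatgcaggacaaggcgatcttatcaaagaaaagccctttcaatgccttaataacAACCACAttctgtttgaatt

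In the second set a RUNX match stands without a match to the κB pattern searched: the region 584619 bp upstream of KLF4 at chr9:108075001-108075200, UNC93A at chr6:167292201-167292400 and IRF1 at chr5:132459201-132459400. The UNC93A bin still holds GGAATTCC, a word found in 7.47% of the members' bins and 0.325% of their flanks.
KLF4: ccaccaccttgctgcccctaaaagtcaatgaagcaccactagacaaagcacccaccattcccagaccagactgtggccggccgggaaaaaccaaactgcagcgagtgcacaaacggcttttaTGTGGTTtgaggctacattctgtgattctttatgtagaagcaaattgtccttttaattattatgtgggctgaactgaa
UNC93A: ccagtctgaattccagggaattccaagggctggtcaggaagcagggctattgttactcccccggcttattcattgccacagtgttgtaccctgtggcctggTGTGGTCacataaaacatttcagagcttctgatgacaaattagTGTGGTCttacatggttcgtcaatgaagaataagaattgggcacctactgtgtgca
IRF1: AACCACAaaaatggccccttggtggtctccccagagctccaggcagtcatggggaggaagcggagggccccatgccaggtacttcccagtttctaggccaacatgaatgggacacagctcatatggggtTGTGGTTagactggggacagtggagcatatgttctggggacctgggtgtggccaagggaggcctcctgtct

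The third set holds κB matches without RUNX, in the GPR146 promoter at chr7:1056401-1056600 and upstream of BIRC2 at chr11:102346001-102346200, and 1 AP-1 match (TGAGTCA) without either, in NOD2 upstream of CYLD at chr16:50719601-50719800.
GPR146: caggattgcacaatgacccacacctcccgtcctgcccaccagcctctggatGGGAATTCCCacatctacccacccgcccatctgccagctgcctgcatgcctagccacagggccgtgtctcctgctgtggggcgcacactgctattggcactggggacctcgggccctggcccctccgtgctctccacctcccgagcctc
BIRC2: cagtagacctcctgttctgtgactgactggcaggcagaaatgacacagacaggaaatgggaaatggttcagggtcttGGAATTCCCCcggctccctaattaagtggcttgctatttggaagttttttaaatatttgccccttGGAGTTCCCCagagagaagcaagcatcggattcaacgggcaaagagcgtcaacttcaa
CYLD: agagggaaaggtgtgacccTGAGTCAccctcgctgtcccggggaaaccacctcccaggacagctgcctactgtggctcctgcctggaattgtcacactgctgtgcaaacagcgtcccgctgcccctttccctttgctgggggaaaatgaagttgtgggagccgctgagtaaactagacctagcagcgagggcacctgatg

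Over the 308 regions, the median signal of the peak bin was 3.00, 3.38 and 3.57 in the SW480 mock libraries and 3.90, 7.55 and 6.87 in the SW480 ERβ libraries. The signal is tag density per base, scaled to a common total in every library. In HT29, the same medians were 1.49, 0.911 and 1.03 in mock and 1.29, 0.916 and 0.921 in ERβ cells. Inputs had medians of 0.318 to 0.540. HT29 signal at these regions was thus low but above input, with a narrow peak of its own in the mean profile.

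**Figure D1:**
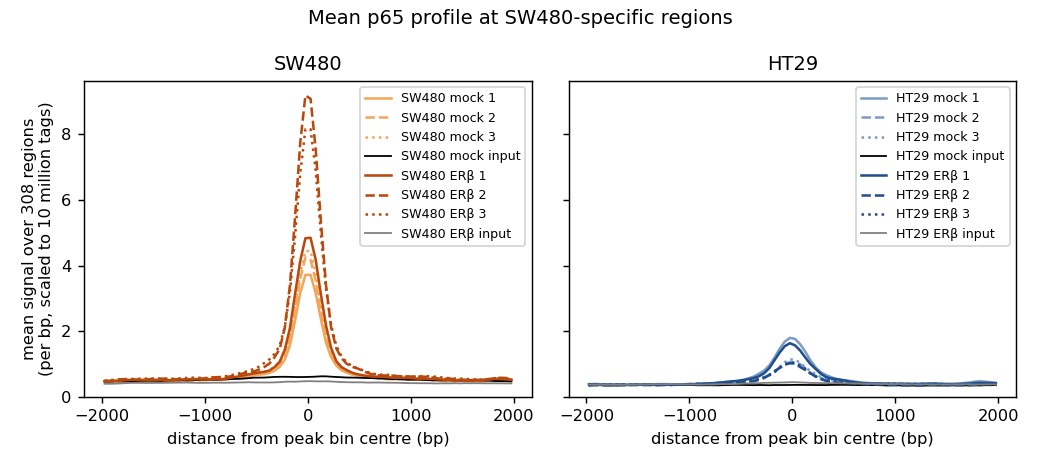
Mean signal (per bp, scaled to a common tag total) over the 308 SW480-specific regions against the distance from the centre of the peak bin, 2 kb to either side, with 1 line per ChIP library or input. At the centre the SW480 ERβ libraries reached 4.85, 9.18 and 8.15, the SW480 mock libraries 3.72 to 4.45 and the HT29 libraries 1.02 to 1.80, and inputs stayed at 0.363 to 0.608.

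Differences between libraries stood beside these values. SW480 ERβ replicate 1 was closer to the mock libraries than to its own group, and HT29 replicate 1 was the strongest of its group in both conditions. At the 581 regions bound in all 4 groups, HT29 mock replicate 1 had a median of 9.15 against 4.54 and 4.89 in the others. A replicate 1 library of HT29 was the highest HT29 library at 211 of the 308 SW480-specific regions.

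**Figure D2:**
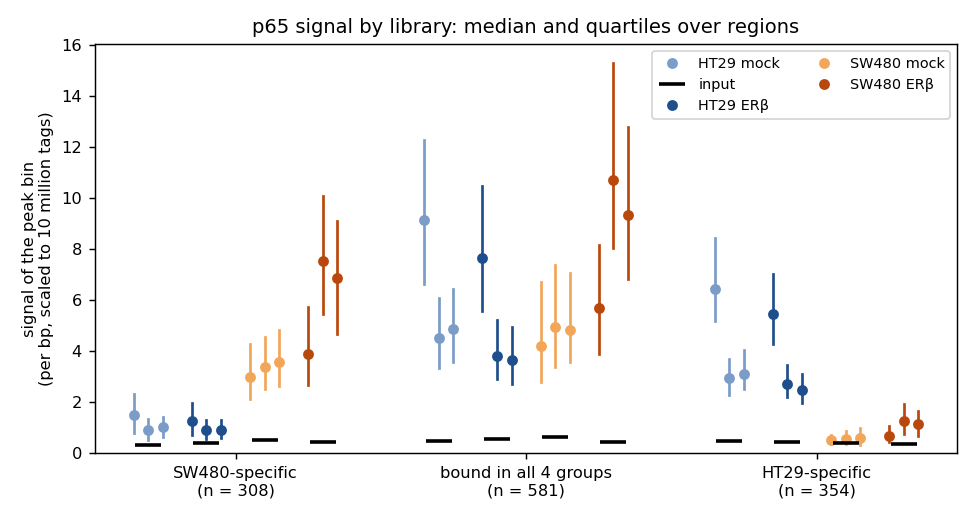
Signal of the peak bin (per bp, scaled to a common tag total) in each ChIP library for SW480-specific regions, regions bound in all 4 groups and HT29-specific regions. Points are medians over regions, vertical lines run from the lower to the upper quartile, and black bars are input medians. At the SW480-specific regions the medians lay at 3.00 to 7.55 in SW480 and 0.911 to 1.49 in HT29.

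The regions differed widely in how far the lines stood apart. The mean of the 6 SW480 libraries was a median of 4.46 times that of the 6 HT29 libraries, with quartiles of 2.96 and 6.89. It was at least 4 times as high at 177 regions and under 2 times at 27. At 223 regions the lowest SW480 library lay above the highest HT29 library, as it did at 16.6% of all regions, and this contrast is the one that chose the members. Conversely, 51 regions had a mean signal of 2 or more in an HT29 group and missed the limits there on input, on the surrounding 10 kb or in the number of libraries.

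The label was therefore weak for some members. At 66 regions an HT29 group reached 80% or more of the limits, while at 113 both HT29 groups stayed under 50%. The region near RAB11FIP4, a partner of RAB11 in membrane recycling, on chromosome 17 from 31599201 to 31599400, had a higher mean in HT29 than in SW480. There the HT29 mock libraries had 4.84, 1.89 and 1.48, HT29 ERβ 2.64, 1.76 and 1.96, SW480 mock 0.718, 2.73 and 2.26, and SW480 ERβ 1.03, 3.37 and 2.87. The 4 groups overlapped.

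Just inside the limits lay a region 280702 bp upstream of JAG1 and the regions near CD28 and FGF3. At the JAG1 region HT29 mock had a mean of 2.79 ± 1.45 and SW480 mock 2.45 ± 0.589 (SD, n = 3). At JAG1, a Notch ligand, and at FGF3, a growth factor, HT29 mock reached 0.999 and 0.996 times its limits. At CD28 it was SW480 mock that passed narrowly, at 1.00 times. Just outside lay a region near PPIAL4G, where HT29 mock reached 1.00 times its limits, and the SPECC1 promoter and a region 594227 bp upstream of IGFBP3, where SW480 mock reached 0.999 times. The 2 sides of each limit thus held nearly equal values.

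The inputs also differed between the lines, though not alike in mock and ERβ cells. The input signal over 100 kb around the regions was a median of 1.24 times as high in SW480 mock as in HT29 mock, against 1.12 times over all 6420 regions and 1.09 times at regions bound in all 4 groups. The ERβ inputs gave 1.02, 0.950 and 0.928 times. In the peak bin itself, the input medians at the members were 0.540 in SW480 mock and 0.318 in HT29 mock. They were 0.61 and 0.42 over all regions, and 0.65 and 0.472 at regions bound in all 4 groups. In ERβ cells the members had 0.43 in SW480 and 0.395 in HT29. At 15 of the 308 regions the HT29 mock input over 100 kb was at most 50% of its median of 0.365 over all regions, and 8 of these 15 lie on chromosome 8. The mock mean of SW480 was at least 2 times that of HT29 at 232 regions. With each divided by its own 100-kb input this held at 196 regions, 192 of them among the 232, and the median ratio, 3.13 before the division, was 2.51.

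Where HT29 had almost no DNA signal, binding could not be read. At the HLA-DQB1 promoter, which serves an antigen-presenting class II gene, and in an intron of NCKAP5, the 3 HT29 mock ChIP tracks and the HT29 mock input held no interval, which was taken as a signal of 0. SW480 mock had 2.71, 2.13 and 1.04 at HLA-DQB1 and 2.26, 3.10 and 1.85 at NCKAP5. These 2 regions were kept among the 308.

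Most SW480-specific regions were distal. By the centre of the peak bin, 155 lay in introns (50.3%), 84 between genes (27.3%), 25 in exons (8.12%) and 44 in promoters. A promoter was the 1 kb before and the 100 bp after any annotated transcript start. Promoters thus held 14.3% (95% Clopper-Pearson interval 10.6% to 18.7%), against 40.4% (36.4% to 44.6%) of the regions bound in all 4 groups, 16.1% of the HT29-specific ones and 29.4% of all regions. The observed-to-expected CpG ratio over 400 bp was above 0.6 at 10.4% of the regions, at 6.78% of the HT29-specific ones, at 36.3% of those bound in all 4 groups and at 25.5% of all regions.

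None of the 308 regions lay within 10 kb of another, and 15 lay within 50 kb. A region bound in all 4 groups stood within 50 kb of 26, and any other region within 50 kb of 131. Chromosome 1 held 7.79% of the members and 9.24% of all regions, chromosome 2 held 7.47% and 8.47%, and chromosome 8 held 6.17% and 3.79%. Chromosome 19, singled out like chromosome 8 after its values were seen, held 1.30% and 4.53%.

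κB matches were the most frequent motif. A κB match stood in 163 of 308 peak bins, or 52.9% (47.2% to 58.6%), against 74.7% (71.0% to 78.2%) at regions bound in all 4 groups, 64.1% (58.9% to 69.1%) at HT29-specific regions, 56.3% of all regions and 5.36% of windows 1 kb to either side of the members. Where a match lay within 500 bp of the SW480 summit, it was within 50 bp of it at 166 of 209 regions. Among words of 8 letters, GGAATTTC or its complement was in 11.4% of the bins and 0.325% of the flanks, and GGACTTTC in 10.7% and 0%. Both are parts of κB sites.

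Of the 21 motifs counted, RUNX was singled out after its values were seen. RUNX matches stood in 73 of 308 bins, or 23.7% (19.1% to 28.9%), against 7.92% (5.86% to 10.4%) at regions bound in all 4 groups and 5.08% (3.04% to 7.92%) at HT29-specific regions. The share was 15% at regions bound in SW480 ERβ cells alone, 11.3% over all regions and 6.66% in the members' flanks. RUNX factors are DNA-binding proteins that work with CBFβ and guide cell fate, among other tissues in the gut epithelium. The intervals for the members and both other classes did not overlap. This is a description, with no test, since motif and selection share the same regions. The nearest RUNX match within 500 bp lay within 50 bp of the summit at 52 of 138 regions. It lay 400 to 500 bp away at 13 of them, as the nearest κB match did at 3 of 209. These counts do not tell looser placement of RUNX sites from more matches unrelated to the summit.

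A κB and a RUNX match stood together in 30 bins, with a median of 51.0 bp between their centres (12.5 to 166 bp) and 14 pairs within 50 bp. In 43 bins, 13.96% of the members, a RUNX match stood without a κB match. The share was 2.24% at regions bound in all 4 groups, 2.54% at HT29-specific ones and 8.52% at those bound in SW480 ERβ cells alone. κB-like words outside the pattern searched, as at UNC93A, were not counted. None of κB, RUNX and AP-1 was found in 79 bins (25.6%), against 18.6% of the regions bound in all 4 groups and 26.8% of the HT29-specific ones.

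AP-1 matches (TGACTCA or TGAGTCA, which are complements) were in 49 bins, 15.9% (12.01% to 20.5%), against 16.9% at regions bound in all 4 groups 11.6% at HT29-specific ones and 12.1% of all regions. For TCF (CTTTGAA or CTTTGAT, either strand), the effectors of Wnt signalling, the share was 12.7% against 6.54%, 10.5% and 9.10%, and for FOXA (TGTTTAC) it was 7.79% against 7.40%, 9.04% and 4.95%. C/EBP matches stood in 7.79% of members, 17.8% of HT29-specific regions and 8.07% of all regions. For GATA factors, searched as AGATAAG, the shares were 1.62%, 5.93% and 1.81%. ZEB/SNAI sites, which are short and frequent, were matched in 26.9% of members and 22.6% of their flanks, against 21.3% of the regions bound in all 4 groups and 17.0% of the HT29-specific ones. SP/KLF matches stood in 7.14%, 16.0% and 1.98% of the 3 classes, and E-box matches in 1.30%, 3.79% and 0.565%. Among the 44 promoter members and the 264 others, SP/KLF had 18.2% and 5.30%, κB 65.9% and 50.8%, and RUNX 13.6% and 25.4%. Promoters were less frequent among members than among regions bound in all 4 groups, and the classes were not compared by place. The estrogen response element was matched in 1 of 308 bins. No match says only that these letters were not in the window.

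**Figure D3:**
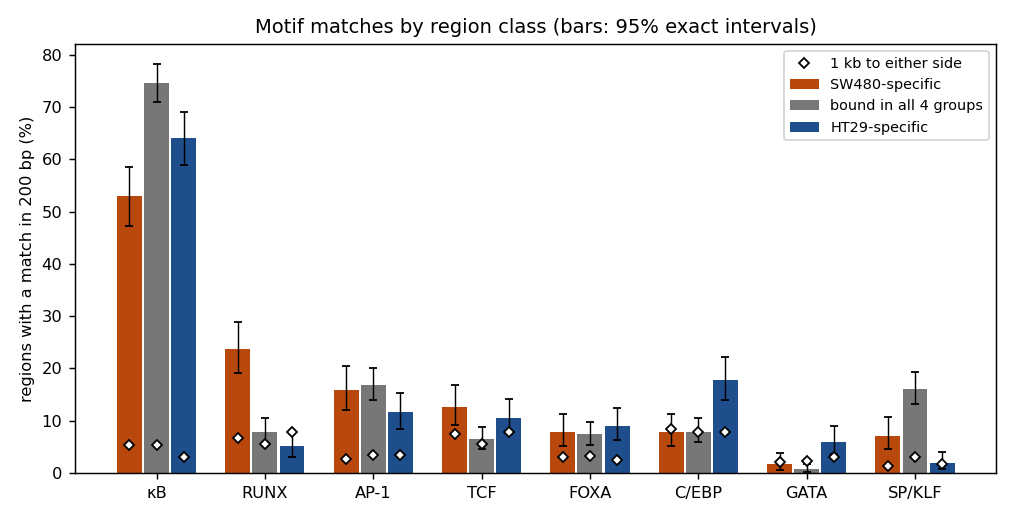
Share of regions (%) with an exact match in the 200 bp of the peak bin, for 8 motifs and 3 classes of region. Bars are shares, error bars 95% Clopper-Pearson intervals, and diamonds the share in windows 1 kb to either side. RUNX stands at 23.7%, 7.92% and 5.08% in SW480-specific, shared and HT29-specific regions, and κB at 52.9%, 74.7% and 64.1%.

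The signal of regions with a RUNX match is given as a description, since the rule used it. Their median was 3.51 in SW480 mock and 7.27 in SW480 ERβ cells, against 3.21 and 5.85 without a match, and 1.09 against 1.17 in HT29 mock and 0.945 against 1.11 in HT29 ERβ cells. The median ratio of SW480 to HT29 was 5.49 with and 4.18 without a RUNX match. For κB the ratios were 4.41 with and 4.68 without.

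The 10 strongest regions were led by the one nearest to NCEH1, a neutral cholesterol ester hydrolase, 43883 bp downstream of an annotated transcript start. Its signal was 19.6, 23.5 and 17.0 in SW480 mock, 18.9, 34.7 and 27.9 in SW480 ERβ, 3.59, 2.59 and 1.93 in HT29 mock and 2.17, 1.63 and 2.67 in HT29 ERβ. All 6 SW480 libraries lay above all 6 HT29 libraries, while mock and ERβ overlapped within SW480. The bin holds 2 κB and 2 RUNX matches.

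Next came regions near IGFBP3, which binds insulin-like growth factors, with an SW480 mock mean of 13.15 ± 0.647 (SD, n = 3), and near FGF3, with 10.6 ± 1.06. KLF4, a transcription factor of epithelial differentiation, had its nearest member 584619 bp away, with 4.81, 7.63 and 7.59 in SW480 mock and 13.4, 25.1 and 20.6 in SW480 ERβ. HT29 stayed at 0.6 to 1.73 there, while at IGFBP3 its libraries had 1.90 to 4.51. In SW480 the ERβ libraries were all above the mock libraries at KLF4 and FGF3. At IGFBP3, SW480 ERβ replicate 1, with 11.2, lay below every SW480 mock library.

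The other strong regions lay in the GPR146 promoter, in introns of GRIK4 (a kainate receptor subunit), MMP20 (the enamel protease) and CPA5 (a carboxypeptidase), upstream of PMEPA1 (an inhibitor of TGF-β signalling) and at a transcript start of DNMT3B. In SW480 mock they ranged from 6.54 at CPA5 to 9.98 at MMP20, and in HT29 mock from 1.14 at GRIK4 to 1.85 at CPA5, as group means. Several of the strongest regions nearly passed in HT29, whose higher group reached 0.996 times its limits at FGF3, 0.971 at PMEPA1, 0.961 at IGFBP3, 0.928 at MMP20 and 0.904 at NCEH1. At PMEPA1 none of κB, RUNX and AP-1 was matched. GRIK4 and CPA5 were higher in ERβ cells, by log2 differences of 1.03 and 1.4 (adjusted p = 0.00888 and 0.000409, limma). Scaled over the regions bound in all 4 groups, these were 0.31 and 0.67 and no longer passed (adjusted p = 0.279 and 0.0584, limma).

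Among promoters of protein-coding genes, GPR146, an orphan G protein-coupled receptor, and DNMT3B, a de novo DNA methyltransferase, were the strongest. The DNMT3B region, 85 bp from a transcript start, had 10.5, 9.04 and 9.0 in SW480 mock, 9.65, 20.8 and 13.2 in SW480 ERβ, and 0.819 to 1.64 in the 6 HT29 libraries. The lines were fully apart, and the SW480 groups overlapped. ADAMTSL2, a matrix protein, and CACHD1, a calcium channel regulator, followed with SW480 mock means of 7.01 ± 1.37 and 6.40 ± 1.46 (SD, n = 3).

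IL23A encodes the p19 subunit of the cytokine IL-23. Its promoter region, 183 bp upstream of a start, had 5.82, 4.48 and 5.59 in SW480 mock, 5.47, 12.2 and 11.9 in SW480 ERβ, 2.05, 1.58 and 0.948 in HT29 mock and 0.705, 1.00 and 1.32 in HT29 ERβ. Other regions in the range counted for IL23A behaved differently: the one 33673 bp upstream was bound in all 4 groups, and the one 273 bp from another annotated start in all but SW480 mock. The SW480-specific call at IL23A thus stood beside p65 binding in HT29 a few kb away.

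The others among the 10 strongest promoter regions belong to PDZD2, KCNH2 (a potassium channel), TBL1X (part of a corepressor complex), PFKFB4 (a regulator of glycolysis) and VDR, the vitamin D receptor. At VDR the lines were less distinct: SW480 mock had 2.59, 5.69 and 5.15, SW480 ERβ 2.99, 11.2 and 10.5, and HT29 mock 3.67, 1.76 and 2.03. The first SW480 library of each condition lay below the highest HT29 library. At TBL1X the HT29 mock libraries had 3.87, 1.85 and 1.66 and SW480 mock 4.33, 4.27 and 5.58.

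**Figure D4:**
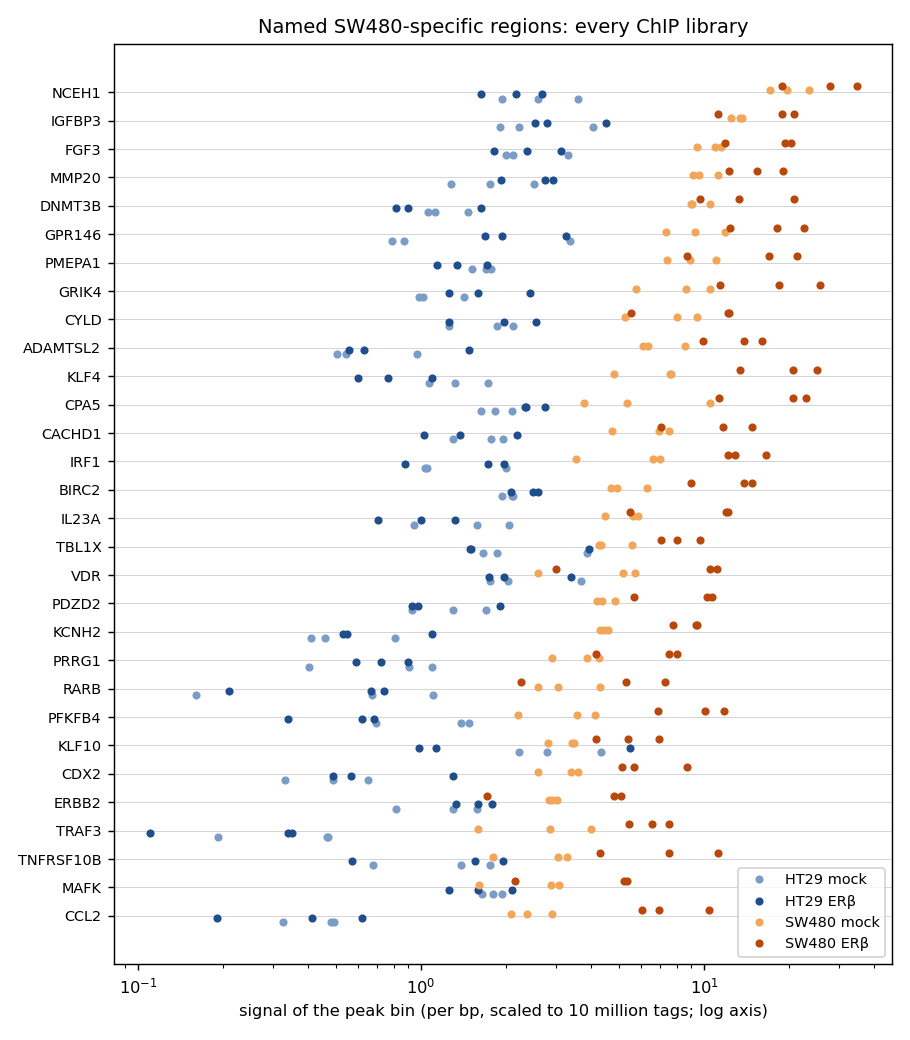
Signal of the peak bin (per bp, scaled to a common tag total, log axis) in each of the 12 ChIP libraries at 30 named SW480-specific regions, ordered by their SW480 mock mean. Each point is 1 library, coloured by group. At most regions the SW480 points stand to the right of all HT29 points, and at VDR, TNFRSF10B, MAFK, ERBB2 and KLF10 the lines overlap.

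Of the genes of classical NFκB biology, CYLD, IL23A, CCL2, BIRC2, TRAF3 and TNFRSF10B had an SW480-specific region. Genes were counted when a region lay in the 50 kb before or the 2 kb after a start. Of 17 NFκB subunit and inhibitor genes, 14 had a region bound in all 4 groups and 1 (5.88%), the deubiquitinase gene CYLD, an SW480-specific one. Among 34 chemokine and cytokine genes the counts were 10 and 2 (5.88%, IL23A and CCL2), and among 24 apoptosis and survival genes 7 and 3 (12.5%, BIRC2, TRAF3 and TNFRSF10B). Over all 19962 protein-coding genes, 3.98% had a region bound in all 4 groups and 1.22% an SW480-specific one. These lists were rich in p65 regions of any class, found at 88.2%, 61.8% and 58.3% of their genes in turn. Over all protein-coding genes the share was 28.3%.

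The CYLD region lies in NOD2, a sensor of bacterial wall fragments, 22349 bp upstream of CYLD. It had 8.0, 9.43 and 5.27 in SW480 mock, 5.54, 12.2 and 12.3 in SW480 ERβ, and 1.25 to 2.55 in HT29, where the ERβ group reached 0.982 times its limits. Upstream of the monocyte chemokine gene CCL2, SW480 mock had 2.08, 2.36 and 2.89 and SW480 ERβ 6.02, 10.4 and 6.96, while HT29 stayed at 0.190 to 0.620. At the latter the 3 levels, HT29, SW480 mock and SW480 ERβ, did not overlap.

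BIRC2 encodes cIAP1, a ubiquitin ligase of the TNF receptor complex. The region 1110 bp upstream had 4.68, 4.95 and 6.29 in SW480 mock, 8.99, 14.7 and 13.9 in SW480 ERβ and 1.93 to 2.60 in HT29. TRAF3, a brake on non-canonical NFκB signalling, had 2 such regions. One lay in an intron, 20340 bp upstream of an annotated transcript start. It had a mean of 2.81 ± 1.20 in SW480 mock and 6.49 ± 1.03 in SW480 ERβ (SD, n = 3), the other 2.63 and 2.28.

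Other lists gave 1 or 2 genes each. These were CDX2 among 22 intestinal transcription factors, VDR and RARB (a retinoic acid receptor) among 32 nuclear receptors, ERBB2 among 28 genes of the EGFR and MAP kinase pathway, IRF1 among 29 interferon genes, MAFK among 14 AP-1 genes and KLF10 among 18 clock genes found. At MAFK and KLF10 the lines overlapped, with means of 1.79 and 3.11 in HT29 mock and 2.53 and 3.23 in SW480 mock. No RUNX factor gene, and none of the 28 mesenchymal, 22 integrin and laminin, 34 Wnt and 26 TGF-β genes had one. The share over all protein-coding genes was 1.22%, so nothing about the members is read from these zeros and single genes.

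CDX2 directs intestinal cell identity. Its region, 1224 bp downstream of the start, had 2.59, 3.6 and 3.39 in SW480 mock, 5.13, 8.68 and 5.64 in SW480 ERβ, and 0.330 to 1.29 in HT29. All 3 levels stood apart. Of the other genes the study names for SW480, PRRG1 had a member 33208 bp upstream, with 2.89, 3.87 and 4.25 in SW480 mock against 0.402 to 1.09 in HT29. The KCNH3 promoter passed the limits in SW480 ERβ alone, with 3.33 ± 0.121 (SD, n = 3) in SW480 mock. HT29 had means of 0.432 in mock and 0.771 in ERβ cells there. No region lay in range of CLRN3, ESR1 or CDH10.

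The difference between ERβ and mock in SW480 cells was not itself a criterion, but both groups had to pass the limits on the values tested here. Regions bound in SW480 ERβ alone (3334) outnumbered those bound in SW480 mock alone (6). The share of members called higher is therefore partly shaped by the choice. limma was fitted to log2(signal + 1) over all 6420 regions with the 6 SW480 libraries and Benjamini-Hochberg adjustment. Of the 308 members, 123 were higher in ERβ cells and 0 lower at an adjusted p under 0.05 (147 and 0 at an unadjusted p under 0.05, which 62.5% and 0.0312% of all regions passed), with a median log2 difference of 0.62. That is 39.9% of the members, against 53.7% of all regions called higher and 0.0156% called lower, a background that includes the 3334 regions chosen by being bound in SW480 ERβ cells alone. With same-numbered libraries as a replicate block, 172 members (55.8%) and 68.7% of all regions were higher. At regions bound in all 4 groups 38.0% were higher in the fit without the block, with a median of 0.65. At 138 members every ERβ library lay above every mock library, against 53.8% of all regions.

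The call depended on how libraries were scaled. With the libraries set to equal median signal over the regions bound in all 4 groups, which takes 0.72 from every log2 difference, 7 members were higher (against 3.63% of all regions) and 10 lower (1.01%), and the median was -0.10. The count also rested on single libraries, since 261 members were higher without ERβ replicate 1 (86.9% of all regions), 54 without ERβ replicate 2 (27.2%) and 43 without ERβ replicate 3 (25.6%). It was 39 without mock replicate 1 (24.5% of all regions), 53 without mock replicate 2 (29.7%) and 91 without mock replicate 3 (42%).

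**Figure D5:**
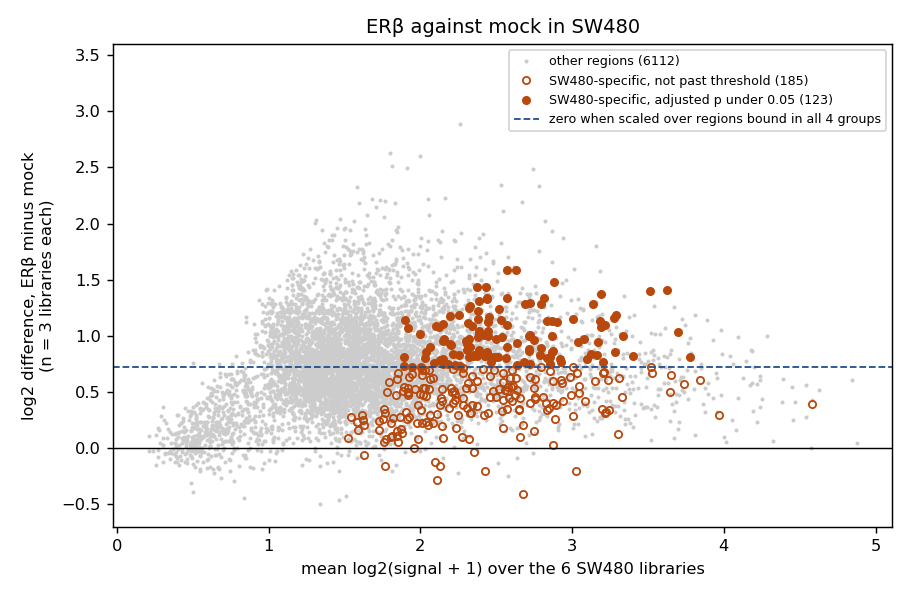
Log2 difference between SW480 ERβ and mock (3 libraries each, log2(signal + 1)) against the mean log2 signal for 6420 regions. Orange circles are the 308 SW480-specific regions, filled for the 123 with an adjusted p under 0.05 in limma, and the dashed line marks where 0 would lie with scaling over regions bound in all 4 groups. The members spread from -0.41 to 1.59 around that line.

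The largest differences were at AFAP1, an actin filament-binding adaptor, at 1.59 ± 0.33 (log2 difference ± SE, limma adjusted p = 2.99e-05), and at UNC93A, a transmembrane protein gene, at 1.59 ± 0.33 (limma adjusted p = 2.88e-05). AFAP1 had 1.42, 2.26 and 4.81 in mock and 8.81, 9.0 and 11.6 in ERβ cells. UNC93A had 1.66, 2.10 and 3.91 in mock and 6.13, 12.4 and 10.4 in ERβ cells. At both, ERβ replicate 1 stood above all mock libraries.

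KLHL29, SH2D1A (an adaptor of lymphocyte signalling) and GRK5 (a receptor kinase) followed, with log2 differences of 1.48, 1.44 and 1.43 (adjusted p = 0.000112, 0.000139 and 0.000151, limma). Of these 5, 4 had only just passed the limits in SW480 mock, at 1.046 times for AFAP1, 1.051 for UNC93A, 1.053 for GRK5 and 1.029 for SH2D1A, against 2.72 to 5.21 times in SW480 ERβ. All 5 stayed higher when scaled over the regions bound in all 4 groups, with adjusted p of 0.0189 to 0.0463 in limma. KLF4, at 1.41, and a region near NTMT1 were the other members of that kind. RUNX matches stood in 5 of these 7 regions and in 1 of the 10 that were lower on that scale, and κB matches in 1 and 5, against 23.7% and 52.9% of all members. The 7 and 10 are few and were singled out after their values were seen. Motif shares of all regions called on that scale are not given, and no link between motif and difference was tested.

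Among the regions named by gene lists, CCL2 (1.33), IRF1 (1.19), TNFRSF10B (1.17), BIRC2 (1.08), TRAF3 (1.02) and CDX2 (0.81) had log2 differences past the threshold (adjusted p = 0.00043 to 0.0280, limma). The other TRAF3 region, at -0.16 (adjusted p = 0.646, limma), was among the 10 lower on the scale set over shared regions. PFKFB4 (1.30), KCNH2 (0.86), ADAMTSL2 (0.82), GPR146 (0.82) and PDZD2 (0.81) did so among promoters. With all 12 ChIP libraries in the limma fit, GPR146, ADAMTSL2 and PDZD2 no longer passed (adjusted p = 0.0721, 0.0526 and 0.0527). IL23A, at 0.72 (standard error 0.33), had an adjusted p of 0.0542 in limma, and VDR, CACHD1, DNMT3B and TBL1X had adjusted p of 0.06415 to 0.178 in limma. With same-numbered libraries as a replicate block, limma gave adjusted p of 0.0147 at IL23A, 0.0171 at TBL1X, 0.0241 at VDR and 0.0252 at CACHD1, and PRRG1 (0.0167) and KLF10 (0.0290) passed as well. Of the regions named here as higher or passing with the block, none passed on the scale set over regions bound in all 4 groups.

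The log2 difference was above 0 at 299 members (97.1%) and at 97.7% of all regions. It was below 0 at 9 members, the lowest at AOAH, a lipopolysaccharide-inactivating enzyme, with -0.41 (adjusted p = 0.255, limma). There mock had 7.18, 8.71 and 4.0 and ERβ 2.42, 6.62 and 5.55. These 9 are among the 10 lower on the other scale. Members with a RUNX match had a median log2 difference of 0.75 and those without 0.61, with 50.7% and 36.6% called higher. With and without κB 45.4% and 33.8% were called higher, and with and without AP-1 34.7% and 40.9%. Promoter members had 0.71 and the others 0.60. These shares are on the deposited scale, where 53.7% of all regions were called higher. The differences between kinds of members were not tested.

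In HT29, where p65 signal at these regions was low by choice, limma called 0 of 308 members higher or lower (3 and 8 at an unadjusted p under 0.05), against 0% of all regions either way (0.343% and 1.64% unadjusted). The median log2 difference was -0.07 over the members and -0.15 over all regions. At 121 members (39.3%) and 22.9% of all regions ERβ was the higher group in HT29. The difference of the ERβ effect between the lines was not tested.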

How the data were processed

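p65 ChIP-Seq libraries (12) and inputs (4) were analysed. The authors aligned unique reads with STAR to hg38 (GRCh38) and made HOMER tracks, 1 per library. The deposited signal is tag density per base, scaled to a common tag total, with values from 0.05, and does not show each library's depth, which is not used here. Stretches with no interval were taken as 0. Signal is smoothed over long intervals where it is low, and it holds no counts, so limma replaced the count test the study used. Labels gave the groups.

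Signal was averaged over 200-bp bins (Python 3.11.15, numpy 2.4.6) and regions joined as the report describes. The surrounding 10 kb left out the bin and its neighbours. Genes and places come from GENCODE 44 and sequences from GRCh38. limma 3.58.1 (R 4.3.3, lmFit, eBayes with trend) used log2(signal + 1) of the peak bin. The fit was also run on simulated data with independent noise per region. Those data held no shift of whole libraries, so they cannot show how the calls respond to one. Same-numbered SW480 mock and ERβ libraries deviated together (correlations 0.307, 0.130 and 0.229), so numbers were taken to pair them, as a replicate block in an alternative fit. This pairing was read from the same signal that was then tested. The study calls its triplicates biological, and the labels do not say what a number shares. Intervals are Clopper-Pearson (95%) and cover counting error only.

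Members, motifs and gene lists were chosen with earlier results of these data known. Named regions were the 10 strongest, the 5 with the largest ERβ difference past the threshold, the 10 strongest in promoters, up to 3 per gene list, 3 on either side of the limits, and genes the study names.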

Additional observations from a re-analysis of the deposited data

How the results depend on the processing

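The number of SW480-specific regions was 308. It was 161 at 6 times the input, 181 with 3 of 3 libraries needed and 497 with the mean of the 4 inputs. Leaving out 1 ChIP library gave 182 to 353, with 188 without SW480 mock replicate 2 and 182 without SW480 mock replicate 3. The group of that library then needed 2 of 2 libraries, a stricter rule than 2 of 3. This alone tends to lower the count for an SW480 library and to raise it for an HT29 library. The other limits gave 245 to 402. The members overlapped were fewer than these counts show: 72.4% of the 308 with the grid shifted by 100 bp (308 regions), 58.4% with a signal of at least 3 (264 regions), 41.9% at 6 times the input and 44.5% with 3 of 3 libraries.

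The number of members higher in SW480 ERβ cells, 123, was 105 to 135 under the pseudocounts, the other region and library sets, input subtraction, background scaling and no trend, and 172 with the replicate block (55.8%, against 68.7% of all regions). With the block, IL23A, TBL1X, VDR, CACHD1, PRRG1 and KLF10 also passed the threshold, and the 20 named members past it stayed past it. It was 7, and the number lower 10, with scaling over regions bound in all 4 groups, and 39 to 261 when 1 library was left out. The number lower was 0 in all the other fits. Of 20 named members past the threshold, 6 remained past it with scaling over the shared regions, 17 with all 12 ChIP libraries in the fit and 11 to 20 without 1 library, and none changed direction.

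The κB share, 52.9%, was 30.8% over 100 bp, 62.7% over 400 bp and 59.0% for members at 6 times the input. RUNX moved from 23.7% to 13.96% and 32.1%, and AP-1 from 15.9% to 7.47% and 25.6%, over 100 and 400 bp. Promoters held 9.74% with protein-coding transcripts alone and 22.1% from 2 kb upstream to 500 bp downstream.

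The tracks hold no read counts, and regions have no counting error here. The lowest mean of a member over the 6 SW480 libraries was 1.90.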
